A study of Mus musculus with 4 samples.

Results

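The 10 genes described here are Pgbd5, Chrna4, Vstm2b, Vstm5, Fam222a, Espn, Hephl1, Dnah2, Txndc2 and Rmdn2, which were higher in mouse primary Leydig cells that received a small interfering RNA (siRNA) against Trps1 than in cells that received Negative siRNA. They are 10 of 55812 features in the table of read counts and were found by their Ensembl gene identifiers in the GRCm38 annotation. All 10 passed the filter on low counts that left 14701 features for testing. They were chosen by name because of their change in this very comparison, so their own levels and fold changes are given as a description, with no test. The set had been labelled neural and ciliary genes. Of the 10 tested neuronal markers 2 rose and 7 had a negative log2 fold change, and of the 21 other tested genes of motile cilia 1 rose and 18 had a negative log2 fold change. Of all tested genes 5.24% were called higher and 6.00% lower (edgeR adjusted p under 0.05), 11.2% in all. The 10 genes are called by their names here.

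Leydig cells are the testosterone-producing cells between the seminiferous tubules of the testis, and the product of Trps1 is a transcriptional repressor with a zinc finger of the GATA kind. The Trps1 siRNA group and the Negative siRNA group held 2 samples each. All 4 samples were labelled Leydig cell from 6-month-old mouse and differed, per the labels, only in the siRNA. Nothing in the labels tells whether samples with the same siRNA were separate cultures or separate mice, and the p-values therefore reflect the spread among these 4 libraries, possibly a technical one.

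The libraries held 17844125 and 21597187 counted reads with Trps1 siRNA and 20116799 and 25852898 with Negative siRNA. The targeted gene, Trps1, had 23.5 and 30.1 CPM (the gene's share of the counted reads of its library, scaled to 1 total for all libraries) with Trps1 siRNA, against 38.1 and 42.2 CPM with Negative siRNA (log2 fold change -0.58 ± 0.10, standard error; edgeR adjusted p = 0.000351). Summed over 10 Leydig markers, the level was 7113 and 7623 CPM with Trps1 siRNA and 4536 and 4884 CPM with Negative siRNA, 8 of these markers rose and none was at 0. Summed over 12 macrophage markers it was 2590 and 2040 CPM with Trps1 siRNA and 3059 and 2967 CPM with Negative siRNA, and 7 of these fell. The sum for 12 neuronal markers was 45.8 and 46.6 CPM with Trps1 siRNA and 36.3 and 36.2 CPM with Negative siRNA. In it 2 of 5 tested genes, Tubb3 and Rbfox3, were higher, and Snap25 and Th were at 0. Tubb3 alone had 32.9 and 33.5 CPM of this sum with Trps1 siRNA and 25.5 and 24.7 CPM with Negative siRNA. Rbfox3 had 8.23 and 7.78 CPM with Trps1 siRNA and 5.07 and 4.02 CPM with Negative siRNA. The other 3 tested genes, Syt1, Syp and Syn1, had log2 fold changes of -0.69, -1.26 and -0.23 and did not pass the test, and the median over the 5 was -0.23. For 12 markers of ciliated epithelium it was 6.16 and 6.81 CPM with Trps1 siRNA and 3.73 and 4.81 CPM with Negative siRNA, with 1 of 2 tested genes higher and Mcidas, Pifo and Sntn at 0. Rsph4a alone had 3.64 and 4.37 CPM of this sum with Trps1 siRNA and 1.29 and 2.11 CPM with Negative siRNA, and Rsph1, the other tested gene, had a log2 fold change of -0.01. In bulk samples, fewer cells of a type and less RNA per cell cannot be told apart, and the part of these shifts in the levels of the 10 genes was not tested.

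The 10 genes belong to different families and were grouped here by what their proteins do. Chrna4 encodes the alpha 4 subunit of nicotinic acetylcholine receptors, ligand-gated cation channels that in the brain pair alpha 4 with beta 2, the product of Chrnb2. Vstm5 and Vstm2b encode single-pass membrane proteins with an immunoglobulin V-set domain, and Vstm5 promotes the outgrowth of membrane protrusions in mouse neurons. Espn encodes espin, which bundles actin filaments in the stereocilia of hair cells and in the Sertoli cell junctions that hold spermatids. Dnah2 encodes a dynein heavy chain of the inner arms of motile cilia and sperm tails, which drive bending by sliding microtubules. Rmdn2 belongs to a small family named for the regulation of microtubule dynamics. Hephl1 encodes zyklopen, a membrane-bound copper-containing ferroxidase known from placenta. Txndc2 encodes a thioredoxin of the tail of developing sperm, with a long run of repeats before its thioredoxin domain. Pgbd5 encodes a protein derived from a piggyBac transposase and is known mainly from the nervous system. Fam222a encodes a protein known in human brain as aggregatin, found in amyloid plaques.

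The start regions of the genes are shown first because they fell into types that the choice of the genes had not used. RefSeq (GRCm38.p6) gave start sites for all 10 genes, 14 in all, with more than 1 for 3 genes. In the 250 bases before the start listed first, 5 of the 10 genes held 20 or more CpG dinucleotides, as did 34.1% of the 10663 tested genes with a listed start. In 4 of the 10 there were 5 or fewer, as in 16.0% of those genes, and Espn, with 11, lay between. At the other listed starts, Espn held 1 and 3, Rmdn2 held 8 and Txndc2 held 0. The type of Espn and Rmdn2 thus depended on the start taken. The CpG-rich starts were those of Fam222a (35), Pgbd5 (33), Vstm2b (26), Chrna4 (24) and Rmdn2 (23), and the CpG-poor ones those of Hephl1 (4), Dnah2 (3), Txndc2 (3) and Vstm5 (2). These starts are those of RefSeq, and the GENCODE gene bodies used for positions elsewhere can begin further upstream. By GENCODE, the CpG-rich windows of Pgbd5, Chrna4, Vstm2b and Rmdn2 lay inside the gene body, and that of Fam222a mostly did. Fam222a (chr5:114568001-114568250, plus strand) and Txndc2 (chr17:65642205-65642454, minus strand) are printed as examples of each type. They run 5′ to 3′ and end at the base before the RefSeq start, with CpG dinucleotides in capitals.
Fam222a: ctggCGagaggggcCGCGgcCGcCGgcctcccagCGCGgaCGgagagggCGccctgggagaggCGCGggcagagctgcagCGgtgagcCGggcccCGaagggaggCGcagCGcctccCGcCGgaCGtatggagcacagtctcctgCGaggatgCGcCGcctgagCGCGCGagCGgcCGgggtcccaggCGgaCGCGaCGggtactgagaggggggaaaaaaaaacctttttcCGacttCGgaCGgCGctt
Txndc2: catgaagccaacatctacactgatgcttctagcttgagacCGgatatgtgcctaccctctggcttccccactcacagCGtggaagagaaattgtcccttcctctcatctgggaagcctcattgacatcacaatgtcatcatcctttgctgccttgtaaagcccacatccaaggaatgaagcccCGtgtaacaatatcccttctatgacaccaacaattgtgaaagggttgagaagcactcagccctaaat

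Vstm5 and Hephl1 are printed because they are next to each other on chromosome 9 and both were higher with Trps1 siRNA. Their windows are chr9:15238795-15239044 on the plus strand and chr9:15112109-15112358 on the minus strand (GRCm38.p6). Capitals mark TTTATA, the reverse complement of the TATA word TATAAA, in both, the GATA word TGATAA in Vstm5 and the CCAAT box in Hephl1.
Vstm5: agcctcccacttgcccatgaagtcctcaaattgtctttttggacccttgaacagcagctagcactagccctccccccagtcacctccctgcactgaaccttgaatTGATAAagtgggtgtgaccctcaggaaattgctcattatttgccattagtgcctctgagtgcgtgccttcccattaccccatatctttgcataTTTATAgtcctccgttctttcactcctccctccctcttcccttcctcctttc
Hephl1: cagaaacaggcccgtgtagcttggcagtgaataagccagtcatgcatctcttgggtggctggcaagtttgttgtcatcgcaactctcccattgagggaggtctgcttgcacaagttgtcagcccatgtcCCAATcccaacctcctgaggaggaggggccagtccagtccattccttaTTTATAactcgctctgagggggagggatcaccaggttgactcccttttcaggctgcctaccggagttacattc

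The reverse complement of TATAAA began 52 bases before the start of Vstm5 and 73 bases before that of Hephl1. Motifs were searched on both strands and before every listed start, and all shares are of the 10663 tested genes with a listed start. TATAAA was found in 8.16% of them and in 2 of the 10. A GATA word (AGATAA or its variant AGATAG, or TGATAA or its variant TGATAG), the kind of sequence that GATA-type zinc fingers bind, was found in 20.5% of them and only in Vstm5 of the 10. The NR5A1 (SF-1) motif AAGGTCA was in 3.62% and in none of the 10, and the cAMP response element TGACGTCA in 2.94% and in none of the 10. CCAAT was in 4 of the 10, against 40.3%, and the GC box GGGCGG in 5, against 62.7%. Of the shorter pieces searched, TGACG was in 1 of the 10 (29.7% of all, the complete cAMP element included) and GTTGCC, part of the RFX motif, in 1 (12.5%), both in Rmdn2, and TTCAGCACC, part of the REST motif, was in none (0.338%). No motif searched was shared by more than 5 of the 10.

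Chrna4 (ENSMUSG00000027577, chromosome 2, 181018380 to 181043546, minus strand) had 176 and 234 reads with Trps1 siRNA and 83 and 106 with Negative siRNA. That is 9.86 and 10.8 CPM with Trps1 siRNA, against 4.13 and 4.14 CPM with Negative siRNA, a 2.50-fold difference. The Negative siRNA samples were nearly alike, and each Trps1 siRNA sample lay between 2.38 and 2.61 times each of them. Of the 15 other nicotinic receptor subunits, 2 were tested and neither passed the test (edgeR). Chrnb2, the usual partner of alpha 4, had 2.91 and 2.07 CPM with Trps1 siRNA and 1.54 and 1.91 CPM with Negative siRNA (log2 fold change 0.50 ± 0.30, edgeR adjusted p = 0.327). Chrnb1, a subunit of the muscle receptor, had 3.47 and 3.45 CPM with Trps1 siRNA and 3.83 and 4.49 CPM with Negative siRNA. Neither had an unadjusted p under 0.05 in edgeR (0 of 2), and DESeq2 and voom called 0. No read was counted for Chrna2, Chrna3, Chrna5, Chrna6, Chrna10 or Chrng in any library.

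Vstm5 lies on the plus strand of chromosome 9 (ENSMUSG00000031937, 15239045 to 15259416) and had 13.2 and 14.3 CPM with Trps1 siRNA, against 5.92 and 5.20 CPM with Negative siRNA, a 2.48-fold difference. Vstm2b (ENSMUSG00000039257, chromosome 7, 40898328 to 40930594, plus strand) had 7.39 and 7.45 CPM with Trps1 siRNA, against 3.18 and 2.66 CPM with Negative siRNA, a 2.56-fold difference. It was counted from 132 and 162 reads with Trps1 siRNA and 64 and 68 with Negative siRNA. For both genes the lower Negative siRNA sample was sample 2, and neither overlapped between the groups. Of Vstm2b, 222 exonic bases (8.08%) lie opposite a noncoding gene, which had 12 and 11 reads with Trps1 siRNA and 5 and 0 with Negative siRNA. The strand setting of the counting is not stated, so reads of the stretch shared by such partners may not be told apart. Among the 12 other VSTM and VSIG genes 7 were tested, of which 3 rose and 2 fell. Without sample 2 of Trps1 siRNA 2 rose and 0 fell. Igsf11, an adhesion protein of the same immunoglobulin type, rose to 50.1 and 51.2 CPM with Trps1 siRNA, against 37.9 and 37.7 CPM with Negative siRNA (edgeR adjusted p = 0.000426). Vsig10 rose 1.33-fold (edgeR adjusted p = 9.60e-05). Vsig8 rose to 1.23 and 1.89 CPM with Trps1 siRNA, against 0.448 and 0.195 CPM with Negative siRNA (edgeR adjusted p = 0.00279), a call lost without sample 2 of Trps1 siRNA. Vsir, an immune checkpoint protein of myeloid cells, fell to 0.721 of the control (edgeR adjusted p = 0.0089), also lost without that sample. Vstm4 averaged 99.5 CPM with Trps1 siRNA and 100.8 CPM with Negative siRNA.

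Espn lies on the minus strand of chromosome 4 (ENSMUSG00000028943, 152120331 to 152152371) and had 27.2 and 26.9 CPM with Trps1 siRNA, against 10.6 and 11.7 CPM with Negative siRNA, a 2.42-fold difference. With 486 and 585 reads with Trps1 siRNA and 213 and 300 with Negative siRNA, it was among the better covered of the 10. Of 22 other genes of stereocilia and actin bundling 12 were tested, 2 rose and 2 fell. Myo7a, a myosin motor of stereocilia, rose to 174 and 176 CPM with Trps1 siRNA, against 114 and 106 CPM with Negative siRNA (log2 fold change 0.67 ± 0.06, edgeR adjusted p = 8.71e-09). Pls3, the actin bundler plastin 3, rose to 89.9 and 93.9 CPM with Trps1 siRNA, against 58.4 and 58.4 CPM with Negative siRNA (edgeR adjusted p = 1.27e-07). Actn1, an actin crosslinker, fell to 0.811 of the control (edgeR adjusted p = 8.02e-04). Lcp1, the plastin of blood cells, fell to 0.817 of the control (edgeR adjusted p = 0.0249), a call lost without sample 2 of Trps1 siRNA. The calls of Myo7a, Pls3 and Actn1 held in all 12 alternatives.

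Dnah2 is on the minus strand of chromosome 11 (ENSMUSG00000005237, 69420809 to 69549110) and had 9.30 and 8.93 CPM with Trps1 siRNA, against 3.43 and 3.36 CPM with Negative siRNA, a 2.68-fold difference. It was counted from 166 and 194 reads with Trps1 siRNA and 69 and 86 with Negative siRNA. Both groups were tight, and each single-sample ratio lay between 2.60 and 2.77. Its exons span 14968 bases, of which 312 (2.08%) lie opposite Dnah2os, a gene with 16 and 12 reads with Trps1 siRNA and 10 and 5 with Negative siRNA. Of 14 other axonemal dynein heavy chains 3 were tested, and 1 rose. Dnah9, an outer arm heavy chain, had 6.22 and 5.75 CPM with Trps1 siRNA and 3.73 and 3.75 CPM with Negative siRNA (log2 fold change 0.67 ± 0.19, edgeR adjusted p = 0.0223). Its call was lost with DESeq2 and with any 1 sample left out, with adjusted p-values from 0.00747 to 0.116 over the alternatives. Dnah5 and Dnah11, outer arm heavy chains of airway cilia, had no reads. Of 44 other genes of motile cilia 21 were tested, 18 of them with a negative log2 fold change and a median of -0.26, and 1 rose. That gene, Rsph4a of the radial spoke head, had 3.64 and 4.37 CPM with Trps1 siRNA, against 1.29 and 2.11 CPM with Negative siRNA (edgeR adjusted p = 0.00336), a call lost without sample 2 of Trps1 siRNA. Foxj1, the regulator of motile cilia, had 2 and 0 reads with Trps1 siRNA and 4 and 3 with Negative siRNA, and Mcidas, Pifo and Sntn had none.

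Rmdn2 (ENSMUSG00000036368, chromosome 17, 79611863 to 79693192, plus strand) had the highest control level of the 10 per exon length. It had 92.2 and 104 CPM with Trps1 siRNA, against 49.1 and 46.8 CPM with Negative siRNA, a 2.05-fold difference, the smallest of the 10. Without sample 2 of Trps1 siRNA the fold was 1.92. Of the 3 paralogs of Rmdn2 and Fam222a, 0 passed the test in edgeR, DESeq2 or voom, and 1 had an unadjusted p under 0.05 in edgeR. Rmdn1 had 8.07 and 8.65 CPM with Trps1 siRNA and 7.21 and 8.32 CPM with Negative siRNA. Rmdn3, a tether between mitochondria and endoplasmic reticulum, had 24.9 and 26.6 CPM with Trps1 siRNA and 23.8 and 20.7 CPM with Negative siRNA (edgeR adjusted p = 0.20).

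Hephl1 is on the minus strand of chromosome 9 (ENSMUSG00000031936, 15051841 to 15112108) and had 7.06 and 7.27 CPM with Trps1 siRNA, against 3.18 and 2.50 CPM with Negative siRNA. It was counted from 126 and 158 reads with Trps1 siRNA and 64 and 64 with Negative siRNA. Its control mean was 2.84 ± 0.48 CPM (SD, n = 2), and the difference was 2.54-fold. The other multicopper ferroxidases did not pass the test. Cp, ceruloplasmin, had 671 and 663 CPM with Trps1 siRNA and 627 and 695 CPM with Negative siRNA, and Heph, hephaestin, had 139 and 173 CPM with Trps1 siRNA and 133 and 145 CPM with Negative siRNA. Of 21 other genes of copper and iron handling 20 were tested, 0 rose and 4 fell in edgeR. With an unadjusted p under 0.05, 2 were higher and 6 lower, and DESeq2 and voom also called 0 higher. Without sample 1 of Trps1 siRNA 1 rose, without sample 2 of Negative siRNA 1 rose, and with the replicate number as a block 2 rose. Those that fell were Slc39a14 (0.739 of the control), a metal ion importer, Slc40a1 (0.744), the iron exporter ferroportin, Fth1 (0.818), ferritin heavy chain, and Trf (0.844), transferrin, with edgeR adjusted p-values of 3.49e-04, 0.0391, 0.00241 and 0.0109. The call of Slc40a1 was lost in 5 of 12 alternatives, among them DESeq2, and that of Trf without sample 1 of either group.

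Txndc2 is on the minus strand of chromosome 17 (ENSMUSG00000050612, 65637507 to 65642168) and had 13.5 and 13.7 CPM with Trps1 siRNA, against 4.93 and 4.53 CPM with Negative siRNA. It was counted from 241 and 298 reads with Trps1 siRNA and 99 and 116 with Negative siRNA. Its 2.88-fold difference was second to that of Pgbd5 among the 10. It is known from spermatids. The summed level of 21 spermatid markers was 1.79 and 1.43 CPM with Trps1 siRNA and 2.54 and 0.899 CPM with Negative siRNA, and 8 of the 21, among them Tnp1, Acr, Odf1 and Akap4, had no reads. Of 24 other thioredoxin family genes 22 were tested, 2 rose and 2 fell. Tmx3 rose 1.29-fold and Txndc16 1.23-fold, whereas Nxn and Tmx1 fell to 0.809 and 0.818 of the control (edgeR adjusted p = 0.00454, 0.012, 0.0122 and 0.00286). The call of Tmx3 was lost without sample 2 of Trps1 siRNA, that of Nxn with DESeq2 and without sample 2 of either group, and that of Txndc16 without sample 1 of either group.

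Pgbd5 is on the minus strand of chromosome 8 (ENSMUSG00000050751, 124369049 to 124439658) and had the largest difference of the 10. It had 130 and 142 CPM with Trps1 siRNA, against 38.9 and 35.8 CPM with Negative siRNA, from 2315 and 3085 reads with Trps1 siRNA and 781 and 917 with Negative siRNA. This was a 3.65-fold difference with single-sample ratios from 3.34 to 3.96. Of 19 other genes derived from transposases 16 were tested and 0 rose in edgeR, DESeq2 and voom, with 2 higher at an unadjusted p under 0.05. The count that fell was 1, and it was 2 without sample 2 of Negative siRNA. Cenpb, the centromere protein B, fell to 0.838 of the control (edgeR adjusted p = 0.00609), a call lost without sample 2 of Trps1 siRNA or sample 1 of Negative siRNA. Pgbd1, of the same piggyBac family, had 2.86 and 2.49 CPM with Trps1 siRNA and 1.89 and 2.74 CPM with Negative siRNA, with overlap between the groups. Fam222a (ENSMUSG00000041930, chromosome 5, 114568016 to 114613220, plus strand) had 7.84 and 9.98 CPM with Trps1 siRNA, against 2.79 and 3.71 CPM with Negative siRNA. It varied most within the groups, and its single-sample ratios ran from 2.11 to 3.58 around a fold of 2.73. Its paralog Fam222b had 26.7 and 31.3 CPM with Trps1 siRNA and 30.3 and 31.7 CPM with Negative siRNA.

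**Figure D1:**
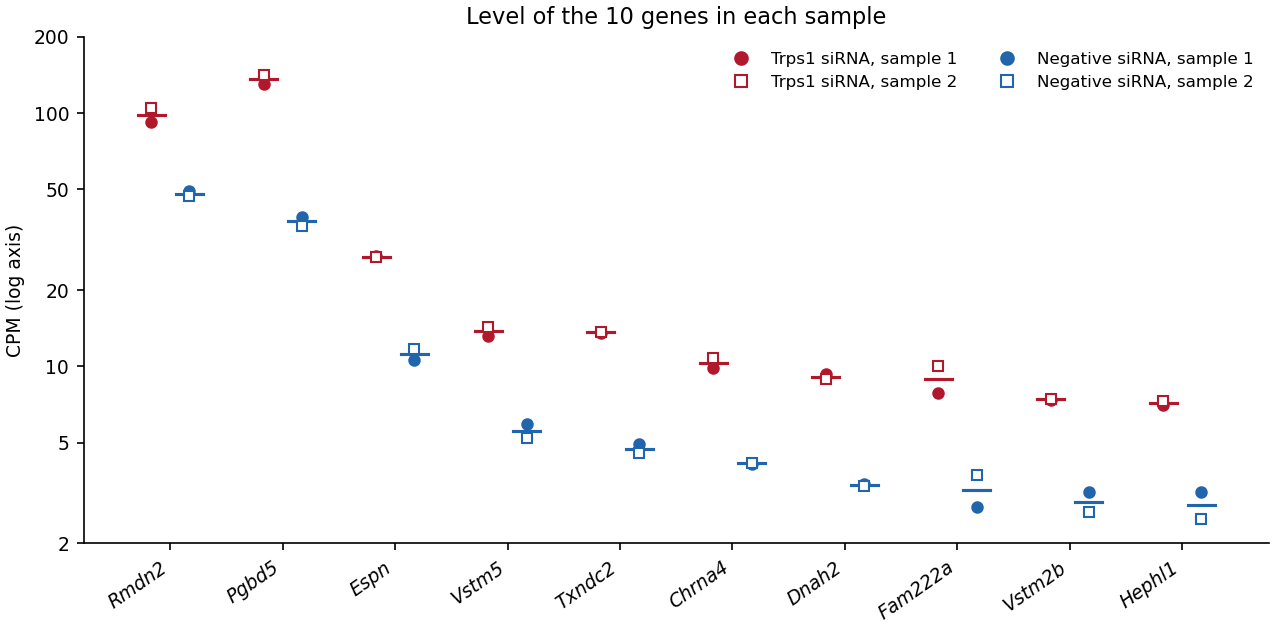
CPM on a log axis for each of the 10 genes in each sample, Trps1 siRNA in red and Negative siRNA in blue, with a bar at the mean of the 2 samples. In all 10 genes both Trps1 siRNA samples lie above both Negative siRNA samples, and 8 of the 10 have control means between 2.84 and 11.2 CPM.

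In all 10 genes both Trps1 siRNA samples lay above both Negative siRNA samples, as in 26.0% of all tested genes, a property that the choice of the genes had used. Their folds ran from 2.05 to 3.65 with a median log2 fold change of 1.35, beside 0.00 over all tested genes. The standard errors of their log2 fold changes ran from 0.07 for Pgbd5 to 0.20 for Hephl1. In all, 770 genes were called higher and 882 lower. Among all 770 genes called higher, 9 of the 10 ranked between 18 and 46 by fold, and Rmdn2 ranked 74. Among the 705 of these with a mean of at least 5 CPM, the same 9 ranked between 3 and 12, and Rmdn2 ranked 30. That mean includes the Trps1 siRNA samples, and the ranks rest on the values by which the 10 genes were chosen. The read coverage in the control was low for 8 of the 10, with means of 2.84 to 11.2 CPM, beside a median of 20.5 CPM over all tested genes. Of the 2519 tested genes with control means in that range, 103 (4.09%) were called higher and 24 (0.953%) at 2-fold or more, these 8 included. The authors' deposited table lists all 10 genes, with log2 fold changes from 1.03 for Rmdn2 to 1.86 for Pgbd5.

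**Figure D2:**
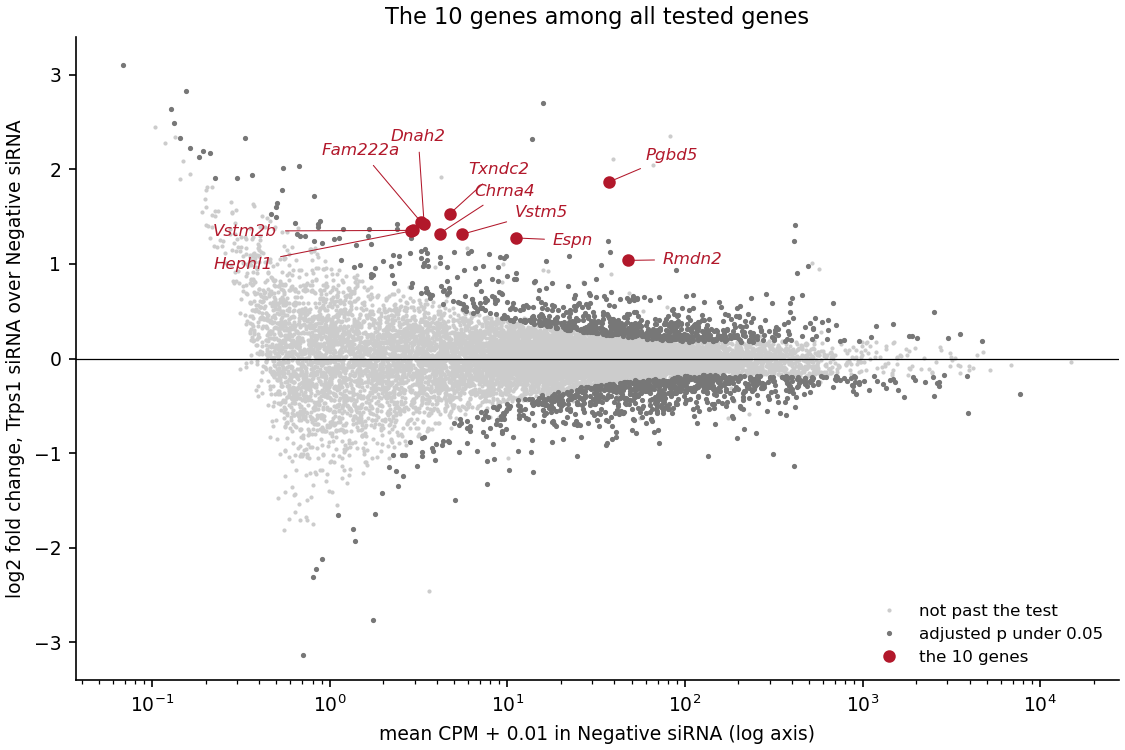
Log2 fold change of Trps1 siRNA over Negative siRNA for each tested gene against its mean CPM in Negative siRNA (log axis), with the 10 genes in red. They lie among the largest rises at their levels, from 1.04 for Rmdn2 to 1.87 for Pgbd5.

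Levels were compared between the genes only per length, as TPM (a share of transcripts, corrected for length) computed from the counts and the merged exon length. With Trps1 siRNA the order was Pgbd5 (101 ± 7.3 TPM, SD, n = 2), Rmdn2 (72.8 ± 7.0), Vstm5 (21.6 ± 1.3), Txndc2 (21.4 ± 0.42), Espn (10.2 ± 0.0055), Fam222a (8.88 ± 1.6), Vstm2b (8.45 ± 0.12), Chrna4 (6.42 ± 0.45), Hephl1 (4.26 ± 0.13) and Dnah2 (1.90 ± 0.04). In this order the values of Vstm5 and Txndc2 overlapped, as did those of Fam222a and Vstm2b. With Negative siRNA Rmdn2 (35.3 ± 1.8 TPM) stood above Pgbd5 (27.6 ± 2.1), so these genes changed places. The others ran from Vstm5 (8.67 ± 0.96) and Txndc2 (7.39 ± 0.57) over Espn (4.19 ± 0.22), Vstm2b (3.30 ± 0.48), Fam222a (3.21 ± 0.59) and Chrna4 (2.56 ± 0.04) to Hephl1 (1.68 ± 0.32) and Dnah2 (0.705 ± 0.024 TPM), and only Vstm2b and Fam222a overlapped as neighbours in the order. The median over all tested genes was 14.2 TPM with Negative siRNA. Among tested genes Dnah2 lay at percentile 14.8 with Trps1 siRNA and 5.53 with Negative siRNA, and Pgbd5 at percentile 88.6 with Trps1 siRNA and 65.7 with Negative siRNA.

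The annotated transcripts of these genes shared few stretches with those of other genes. Introns and the rest of the genome were not searched. Of all 50-base stretches in their annotated transcripts, 100% were found in no other gene for 7 of the 10, 99.9% for Rmdn2, 98.9% for Dnah2 and 95.4% for Vstm2b. The shared stretches of Dnah2 and Vstm2b were those of their opposite-strand partners, and those of Rmdn2 were shared with Ankrd17. Within the longest Txndc2 transcript, 9.11% of 50-base stretches occurred more than 1 time. The median exon length of the 10 was 4210 bases, beside 4204 for all tested genes, and the median gene body 38740 bases, beside 21490. An exon overlap with a gene on the opposite strand was annotated for 2 of the 10 and for 30.1% of tested genes.

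By position, Hephl1 and Vstm5 were each other's nearest tested neighbour on the side where they face each other, 127 kb apart and pointing away from each other, and each was over 2-fold higher with Trps1 siRNA. Among 14403 neighbouring pairs of tested genes, 4 had both genes called higher at 2-fold or more, a count made after seeing this pair. The genes outside the pair did not share its size of change. Panx1, a membrane channel 6.36 kb beyond the end of Hephl1, had a log2 fold change of -0.13 ± 0.12 (edgeR adjusted p = 0.592). Med17, a Mediator subunit 0.934 kb beyond the end of Vstm5, had one of 0.20 ± 0.07 (edgeR adjusted p = 0.0904). Within 100 kb of the 10 genes 37 other genes were tested, with a median log2 fold change of 0.06. Of these 37, 3 (8.11%) rose and 0 fell in edgeR, beside 5.24% and 6.00% of all tested genes. With an unadjusted p under 0.05, 8 were higher and 2 lower, and DESeq2 and voom also called 0 lower. Without sample 2 of Trps1 siRNA 1 of the 37 rose, without sample 1 of Trps1 siRNA 2 fell, and without sample 1 of Negative siRNA 1 fell.

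Of the neighbours that rose, Kdm6b, a histone H3 lysine 27 demethylase 7.13 kb beyond the end of Dnah2, had 61.8 and 73.8 CPM with Trps1 siRNA, against 53.4 and 51.1 CPM with Negative siRNA (edgeR adjusted p = 0.00199), a call lost without sample 2 of Trps1 siRNA. Rab31, a vesicle transport GTPase upstream of Txndc2, rose 1.21-fold (edgeR adjusted p = 0.00207), and the third was a clone-named gene near Vstm5. Col20a1, a collagen gene 0.016 kb beyond the end of Chrna4, had 64 and 58 reads with Trps1 siRNA and 48 and 65 with Negative siRNA. Cyp1b1, a hydroxylase of estrogens 8.34 kb beyond the end of Rmdn2, had a log2 fold change of 0.19 ± 0.11 (edgeR adjusted p = 0.333), Trpv4, a calcium channel 8.93 kb beyond Fam222a, one of -0.62 ± 0.22 (adjusted p = 0.0843), and Cog2, the nearest tested gene upstream of Pgbd5, one of 0.07 ± 0.08 (adjusted p = 0.64). Wrap53 upstream of Dnah2, Vapa beyond Txndc2, and Plekhg5 and Acot7 on either side of Espn did not pass the test. None of these named neighbours changed by as much as the gene beside it. The opposite-strand partners of Vstm2b and Dnah2, with few reads, had log2 fold changes of 2.34 ± 0.86 and 1.09 ± 0.61 and did not pass the test.

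**Figure D3:**
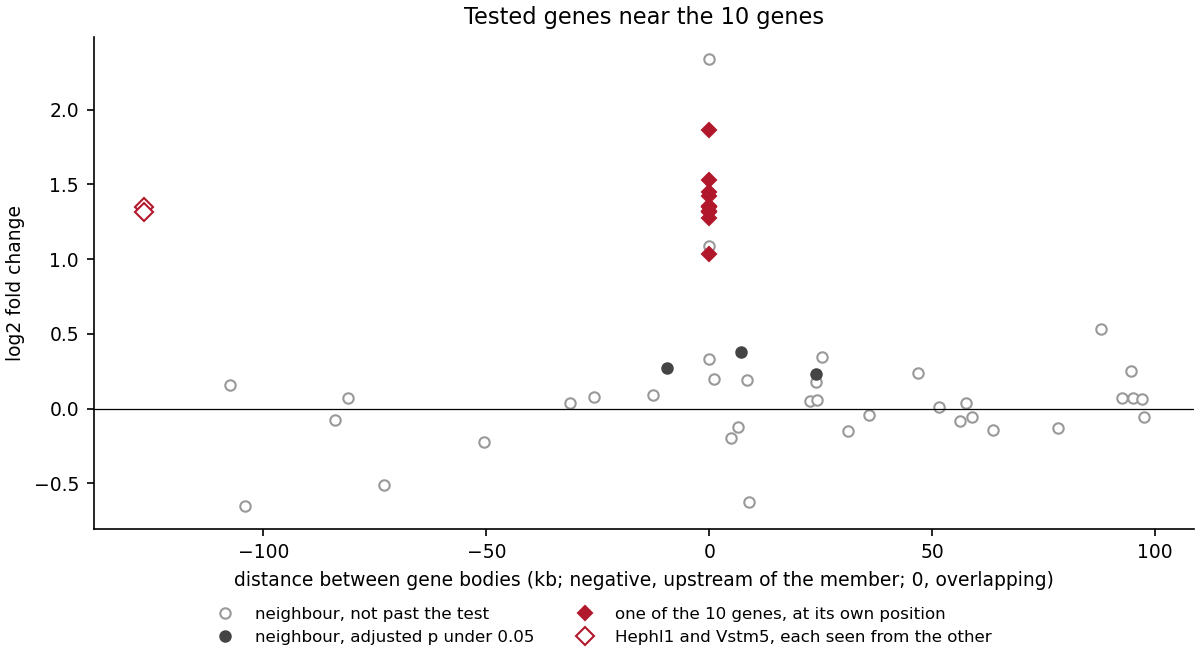
Log2 fold change of tested genes near the 10 genes against the distance between gene bodies in kb, negative upstream and 0 for overlapping genes. The neighbours within 100 kb that passed the test lie between 0.23 and 0.38, below all 10 genes, and Hephl1 and Vstm5 appear at 127 kb from each other. The open points above 1 at distance 0 are the opposite-strand partners of Vstm2b and Dnah2.

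Over the 11 lists of related genes, 128 genes outside the 10 were tested, with a median log2 fold change of -0.02. Of these 128, 13 (10.2%) rose, beside 5.24% of all tested genes, and 11 (8.59%) fell, beside 6.00%. Without sample 2 of Trps1 siRNA 8 rose and 5 fell. Among 31 neuronal markers 10 were tested, 2 rose and 7 had a negative log2 fold change, with a median of -0.17. Syp, a synaptic vesicle protein, had the lowest, -1.26 (edgeR adjusted p = 0.0917, chosen after its value was seen). With an unadjusted p under 0.05 in edgeR, 3 of these markers were higher and 1 was lower. Rbfox3, the neuronal nuclear antigen NeuN, had 8.23 and 7.78 CPM with Trps1 siRNA, against 5.07 and 4.02 CPM with Negative siRNA (log2 fold change 0.82 ± 0.18, edgeR adjusted p = 0.00252). Tubb3, a beta-tubulin of neurons, rose to 32.9 and 33.5 CPM with Trps1 siRNA, against 25.5 and 24.7 CPM with Negative siRNA (edgeR adjusted p = 0.00283). Snap25, Gap43, Dcx and Chga, all abundant in neurons or neuroendocrine cells, had no reads, and Sox10 of glia had none either. Of 12 genes that repress neuronal genes all were tested and 2 rose, Sin3a (1.22-fold) and Rcor1 (1.18-fold), with edgeR adjusted p-values of 0.0135 and 0.0438. Both calls were lost with DESeq2 and without sample 1 of either group, and that of Rcor1 in 7 of the 12 alternatives. Rest, the central repressor of neuronal genes, had 29.1 and 33.5 CPM with Trps1 siRNA and 27.5 and 30.7 CPM with Negative siRNA.

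**Figure D4:**
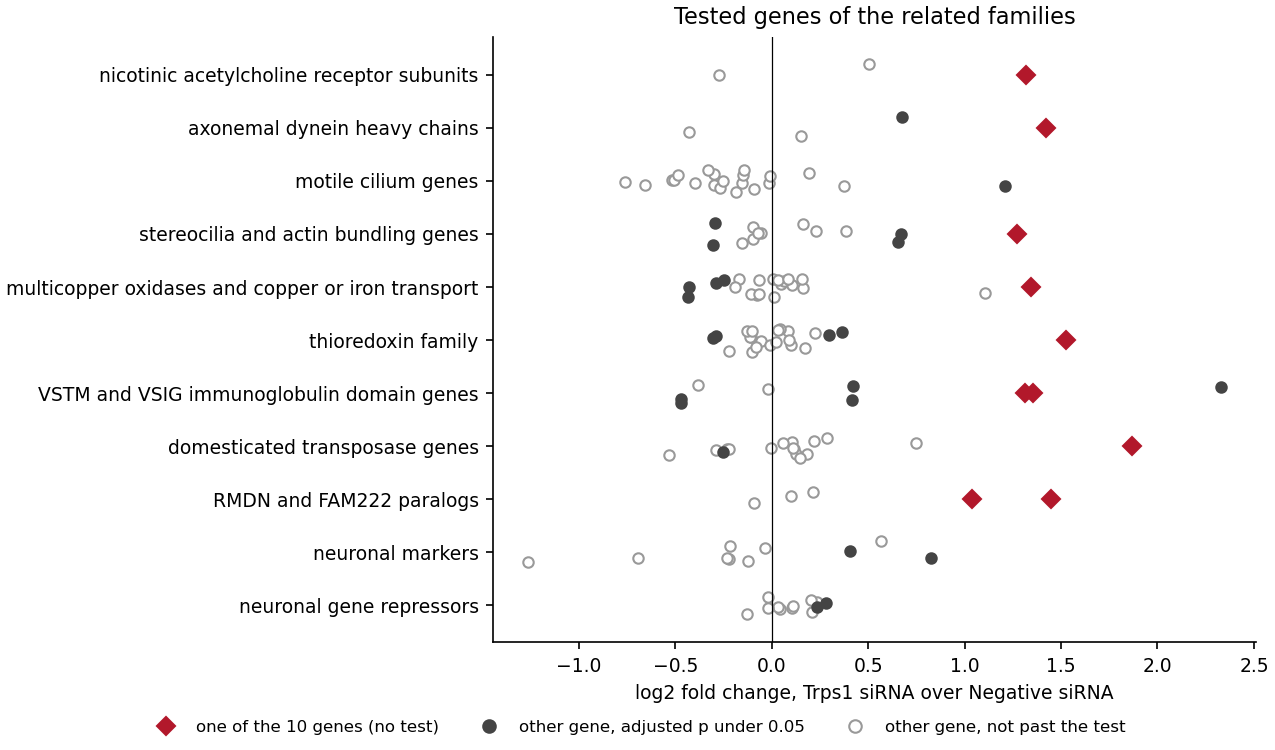
Log2 fold change of the tested genes in 11 lists of related genes, with the 10 genes as red diamonds, other genes past the test filled and the rest open. Apart from Vsig8 and Rsph4a, no other gene that passed the test exceeded 1.

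The genes whose pattern over the 4 samples was most like the mean of the 10 were found by distance between log2(CPM + 0.5) values centred on the Negative siRNA mean. A gene known only by a clone name or identifier was skipped (1 gene). The 5 closest of the others were Oxtr (0.192), Sult1e1 (0.227), Hsd3b1 (0.271), B3gnt6 (0.289) and Lhcgr (0.298). They were found by their change in these same samples, so their values are a description, with no test. Oxtr, the oxytocin receptor, had 88.5 and 85.6 CPM with Trps1 siRNA, against 35.1 and 38.5 CPM with Negative siRNA, a 2.36-fold difference. Lhcgr, the receptor for luteinising hormone, had 80.0 and 83.4 CPM with Trps1 siRNA, against 40.5 and 34.7 CPM with Negative siRNA. Sult1e1, an estrogen sulfotransferase, and Hsd3b1, which makes progesterone from pregnenolone, were higher by 2.37-fold and 2.67-fold at control means of 410 and 416 CPM. Hsd3b1 has a close paralog, Hsd3b6, and the handling of multi-mapped reads is not stated, so its level is uncertain. B3gnt6, a glycosyltransferase, had 1.23 and 1.47 CPM with Trps1 siRNA, against 0.398 and 0.313 CPM with Negative siRNA.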

How the data were processed

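The authors deposited raw read counts per gene for 4 RNA sequencing libraries of total RNA. HISAT2, featureCounts and GRCm38 (mm10) are listed in the submitters' processing notes. Versions, strand setting and the handling of multi-mapped reads were not given in the sources. The authors' deposited table of changed genes gives a normalised signal (mean count per group), log2 fold changes and p-values by a test not named there. Samples were grouped by title. CPM used the total of each library over the tested genes, multiplied by its TMM factor. TPM was computed from the counts and merged exon lengths. Symbols, exon lengths and positions came from GENCODE M21 (GRCm38), promoter sequences from RefSeq (GRCm38.p6).

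Counts were fitted with edgeR 4.0.16 (R 4.3.3): TMM, filterByExpr (minimum count 10), robust glmQLFit and glmQLFTest, group only, 2 residual degrees of freedom, Benjamini-Hochberg over 14701 features and a threshold of 0.05. Replicates differed by more than sampling noise, with a mean chi-square per gene of 3.47 with Trps1 siRNA and 5.55 with Negative siRNA. The 411 features without Ensembl identifier stayed in. The fit was tested on simulated counts. Alternatives used limma 3.58.1 (voom) and DESeq2 1.42.0.

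The 10 genes and all lists were chosen with earlier results of these data known. Named besides them are Trps1, in each family list up to 4 genes past the threshold with the smallest p and the 2 most abundant tested genes, neighbours past the threshold within 100 kb or nearest on either side, and the 5 genes of most similar pattern. Genes with clone names were counted only. Other genes named were chosen after their values were seen. Results for some listed genes are not reported here.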

Additional observations from a re-analysis of the deposited data

How the results depend on the processing

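For the 10 genes the log2 fold change stayed positive under 12 alternatives (11 for Hephl1, which a minimum mean of 5 CPM removed). The mean of Hephl1 passed that bound on the scale of the main fit. It missed the bound in this alternative, where scaling used all counts before any filter. The log2 fold change lay between 0.94 for Rmdn2 without sample 2 of Trps1 siRNA and 1.93 for Pgbd5 without sample 1 of Trps1 siRNA. The widest span was that of Fam222a, 1.254 to 1.681. These fits reused the samples by which the 10 genes were chosen. In all 10 both Trps1 siRNA samples lay above both Negative siRNA samples, so the positive sign was fixed beforehand and is no test. Of 31 named calls outside the 10 genes, 16 held in every alternative that gave a value and 15 were lost in at least 1, and 5 of 32 genes not called were called in at least 1. None reversed.

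Counts moved by more than 1.5 times as follows, and the cause was not tested. DESeq2 called 438 genes higher and 553 lower. With the replicate number as a block, 20 genes of the related lists and 8 neighbours rose, and 2 neighbours fell. The pairing check gave a correlation of same-numbered deviations of 0.016. With 2 samples per group it cannot show whether same-numbered samples share a source, which the labels do not state. A block call is therefore not read as a paired result. With a mean of at least 5 CPM 5 neighbours rose, and with no filter on low counts 1 neighbour fell. With 1 sample left out, 395 to 748 genes were higher and 476 to 927 lower, 8 to 13 genes of the related lists rose and 5 to 11 fell, and 1 to 4 neighbours rose and 0 to 2 fell. The counts of genes that rose, and those of all genes and related genes that fell, were lowest without sample 2 of Trps1 siRNA. There the lone sample of a group is assumed to vary like the other group. RLE size factors, library totals alone, voom and no robust estimation kept these counts within 1.5 times. Low read counts limit the precision for Vstm2b, Hephl1, Dnah2 and Fam222a.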
